A study of Mus musculus with 15 samples.

Results

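The type I interferon response genes examined here are 50 mouse genes: the interferon beta gene, its receptor subunits and 47 genes that interferon switches on. They were chosen by name, as known parts of this response, and their array probes were found through the RefSeq transcript that each probe is designed against. A usable probe was found for 47 of the 50, out of 14198 genes measured. Mx1, Mx2 and Rnf213 had no probe matched in this way and are not analysed here. RNA came from macrophages grown from mouse bone marrow in macrophage colony-stimulating factor, and each of 15 single-colour Agilent arrays holds the RNA of 1 culture well. Knockout (KO) cells carried the genotype Junb-fl/fl Lyz2-Cre+/+ on a C57BL/6 background, in which Cre recombinase, expressed from both copies of the lysozyme gene Lyz2, a myeloid gene, deletes the floxed gene of the AP-1 subunit Junb. Wild type (WT) cells were C57BL/6 without Cre and without a floxed allele. There were 3 LPS-treated and 4 mock-treated KO wells, and 4 LPS-treated and 4 mock-treated WT wells. LPS (lipopolysaccharide, a cell wall component of Gram-negative bacteria) was given at 100 ng/ml, and all cells were harvested at 4 h. Mock-treated wells are called untreated below. The labels describe replicate wells and do not say how many mice they came from, so p-values measure the spread between wells, which may be technical.

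Type I interferons are secreted antiviral cytokines. In macrophages, LPS sensed by Toll-like receptor 4 leads through the adaptor TRIF and the kinase TBK1 to the factor IRF3, which switches on Ifnb1. The secreted interferon beta binds the receptor chains IFNAR1 and IFNAR2 on the same and neighbouring cells, and the associated kinases JAK1 and TYK2 activate STAT2, which acts with IRF9. Together they bind interferon-stimulated response elements (ISREs) in the promoters of antiviral genes. Macrophages at rest also keep a low tonic level of this signal, so the genes are read out both without and with LPS.

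Promoters were compared because the members share one known type of control element. The windows are RefSeq promoters of assembly GRCm38.p6, from 250 bases before to 50 bases after each annotated start, and 40 of the 50 members matched a window. Oas2, Zbp1, Tor3a, Parp9, Dhx58, Usp18, Parp14, Mx2, Rtp4 and Mx1 did not and are named only. Each window was searched on both strands for the ISRE core GAAANNGAA, the AP-1 site TGANTCA, the STAT dimer site (GAS) TTCNNNGAA and the NF-kB site GGNNTTTCC. The 250 bases before the start are shown for Isg15, Rsad2, Cmpk2 and Ifit1, of the members whose LPS response differed between the genotypes, and for Ifnb1, the ligand. Capitals mark ISRE and NF-kB matches, and positions count back from -1, the base before the start, to the first base of a match. Isg15 (chr4:156200819-156201068, minus strand) holds 3 overlapping ISRE matches at -78, -72 and -66 and an NF-kB match at -41. Rsad2 (chr12:26456453-26456702, minus strand) holds an ISRE match at -119 and an NF-kB match at -75. Cmpk2 (chr12:26468965-26469214, plus strand), the neighbour of Rsad2 in the opposite orientation, holds neither. Ifit1 (chr19:34640639-34640888, plus strand) holds ISRE matches at -109, -103 and -84. Ifnb1 (chr4:88522795-88523044, minus strand) holds an NF-kB match at -115 and no ISRE core of these letters.
Isg15: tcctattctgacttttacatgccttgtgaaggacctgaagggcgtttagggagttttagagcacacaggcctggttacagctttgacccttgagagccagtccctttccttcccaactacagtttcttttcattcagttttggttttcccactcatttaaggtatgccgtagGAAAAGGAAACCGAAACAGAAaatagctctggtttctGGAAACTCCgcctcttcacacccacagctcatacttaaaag
Rsad2: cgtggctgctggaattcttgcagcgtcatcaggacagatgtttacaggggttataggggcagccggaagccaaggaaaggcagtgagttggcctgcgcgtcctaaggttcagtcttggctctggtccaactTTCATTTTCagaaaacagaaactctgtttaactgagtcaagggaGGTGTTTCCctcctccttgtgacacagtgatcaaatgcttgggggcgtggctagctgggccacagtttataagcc
Cmpk2: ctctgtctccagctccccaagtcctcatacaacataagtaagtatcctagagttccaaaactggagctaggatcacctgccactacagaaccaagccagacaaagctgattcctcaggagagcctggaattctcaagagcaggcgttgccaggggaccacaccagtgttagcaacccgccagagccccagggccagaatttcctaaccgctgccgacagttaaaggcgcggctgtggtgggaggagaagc
Ifit1: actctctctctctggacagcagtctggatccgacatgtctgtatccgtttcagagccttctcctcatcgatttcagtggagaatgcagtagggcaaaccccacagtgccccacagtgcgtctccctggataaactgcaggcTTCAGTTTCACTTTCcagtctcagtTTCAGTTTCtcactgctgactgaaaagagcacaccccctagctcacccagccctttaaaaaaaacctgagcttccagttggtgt
Ifnb1: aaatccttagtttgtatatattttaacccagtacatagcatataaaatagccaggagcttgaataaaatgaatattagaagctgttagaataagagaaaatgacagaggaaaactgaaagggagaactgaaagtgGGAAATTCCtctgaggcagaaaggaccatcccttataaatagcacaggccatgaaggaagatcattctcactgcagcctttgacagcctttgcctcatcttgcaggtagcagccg

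An ISRE core was present in 19 of the 40 members with a window (47.5%), against 9.76% of the 27025 genes with a window. More than 1 ISRE core was found in 13 members, and 9 pairs of neighbouring ISRE matches shared bases. The GAS letters were present in 10 members (25%, against 9.55% of all genes), the AP-1 letters in 8 (20%, against 8.97%) and the NF-kB letters in 6 (15%, against 6.62%). A GAS match shared bases with an ISRE match in Bst2 and in Ifitm3. The 8 members with AP-1 letters were Ifi35, Uba7, Oas3, Ifit3, Rsad2, Ifitm3, Xaf1 and Trim30a. ISRE letters were present in 10 of 20 members that were lower in untreated KO cells and in 9 of 19 other members measured. The counts were 5 of 20 and 1 of 19 for NF-kB letters, 5 and 3 for AP-1 letters and 5 and 5 for GAS letters, and none of these was tested. These matches describe letters in a window and say nothing of binding.

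**Figure D1:**
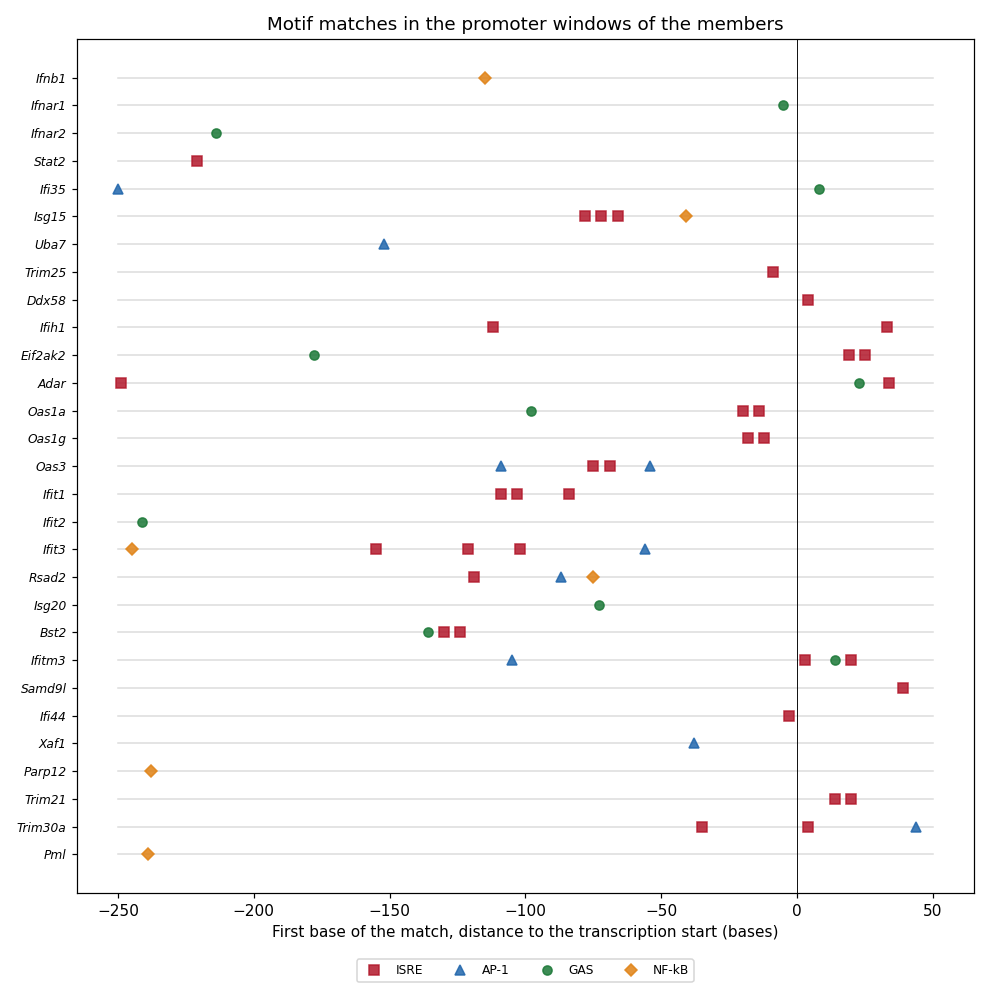
Matches of the ISRE, AP-1, GAS and NF-kB letters in the promoter windows of the members with at least 1 match, by distance from the transcription start in bases; each row is a gene, each symbol the first base of a match, and windows of genes with several starts are drawn on one row. Red squares for the ISRE core stand in 19 rows, as in Isg15 at -78, -72 and -66, and symbols right of the line at 0 lie after the start.

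The deleted gene was checked first. Junb was well above background on 0 of 7 KO arrays and on 8 of 8 WT arrays. Lyz2 gave a signal of 869 to 3793 on KO arrays and 345888 to 448164 on WT arrays. Xist, which is transcribed from the inactive X chromosome of female cells, was well above background on 0 of 7 KO and 8 of 8 WT arrays, and the Y-linked Ddx3y and Eif2s3y each on 7 of 7 KO and 0 of 8 WT arrays. The Y-linked Kdm5d and Uty were above background on 7 of 7 KO arrays and also on 5 and 6 of 8 WT arrays. All KO arrays lay on slide 1 and all WT arrays on slide 2. The file headers give the same scan date for all KO arrays and another for all WT arrays. Loss of Junb, Cre, loss of Lyz2, sex-linked genes, slide and scan date therefore cannot be told apart in any comparison of KO with WT. Of 7 matched macrophage markers, 7 were above background on all arrays. Signals were divided by each array's 75th percentile, which lay between 482 and 1490, and levels below are log2 of that ratio. Untreated KO replicate 3, untreated WT replicate 1 and LPS-treated WT replicate 4 deviated most from their groups (SD over genes 0.638, 0.540 and 0.526, against 0.231 to 0.434 on the other arrays).

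Without LPS, the interferon-induced genes were mostly lower in KO than in WT macrophages. Of the 47 members, 24 were lower and 1 was higher in untreated KO cells, against 5.83% lower and 11.9% higher among all genes tested (limma, Benjamini-Hochberg adjusted p over all genes, threshold 0.05). The median KO minus WT difference over the 47 was -0.60 on the log2 scale, against 0.04 over all genes. KO and WT arrays did not overlap, with KO below WT, in 22 members (7.22% of all genes). Among the called members above background in both genotypes, the widest gaps were those of Isg15, Usp18, Rsad2, Oas3 and Cmpk2, whose untreated levels were 2.99-fold to 4.56-fold lower in KO cells.

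**Figure D2:**
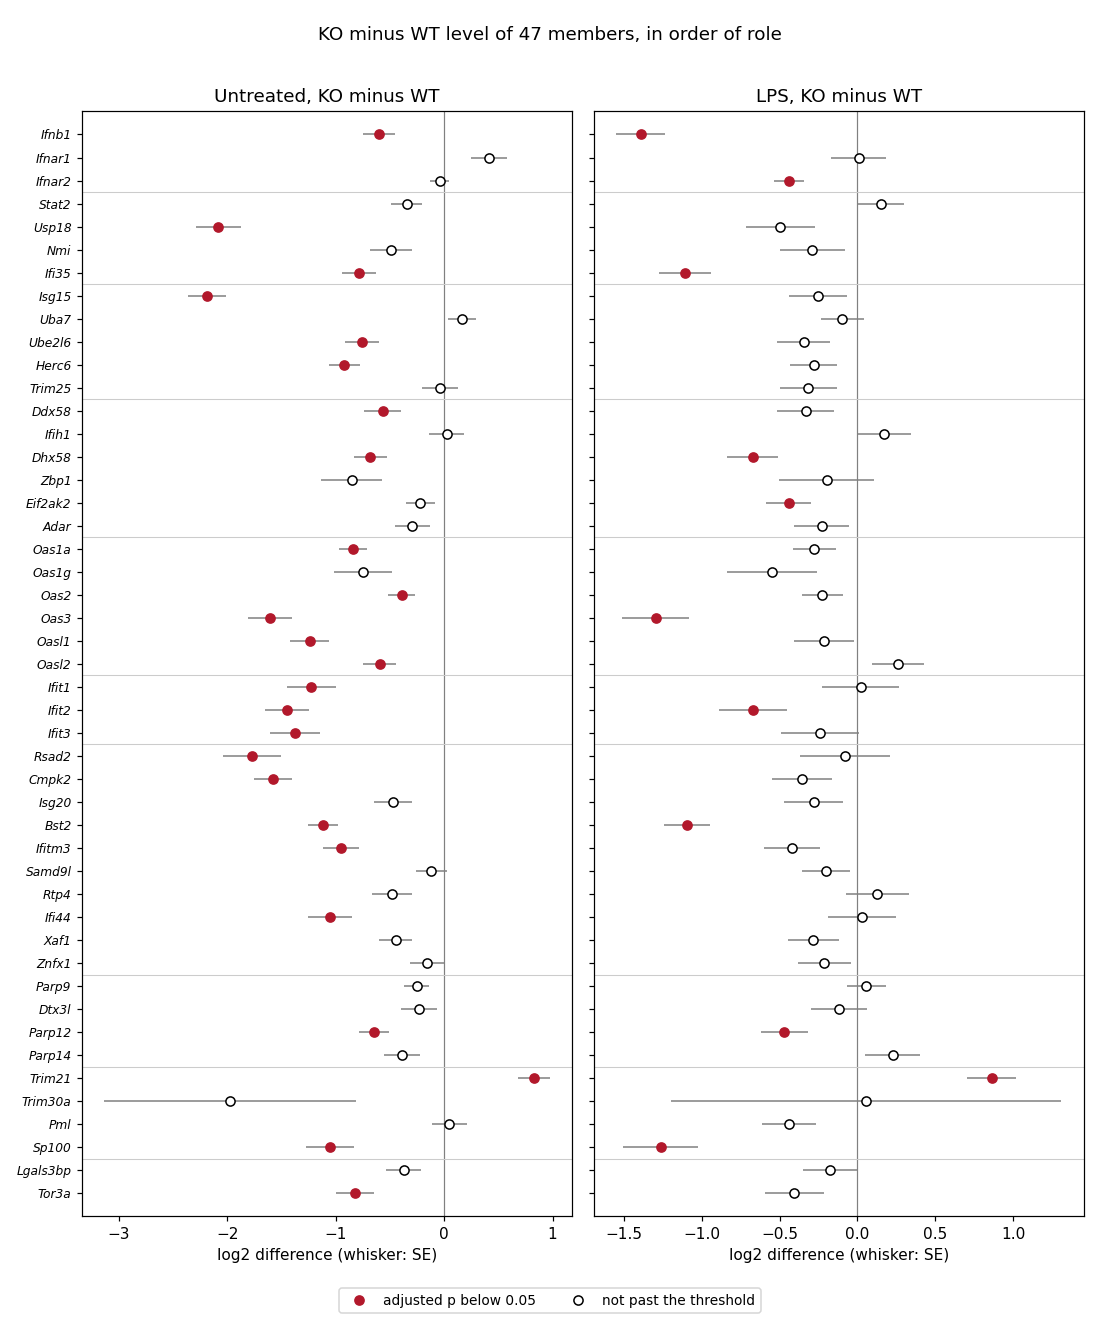
KO minus WT difference in level (log2, whiskers SE) of the 47 measured members, untreated on the left and with LPS on the right, in order of role from ligand to secreted proteins; filled points have an adjusted p below 0.05. On the left 24 filled points lie below 0 and 1 above; on the right 10 lie below 0 and 1 above.

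By role, the ubiquitin-like modifier ISG15 and its enzymes had 3 of 5 members lower in untreated KO cells. Isg15, which encodes the modifier itself, had levels of 2.93, 3.24, 2.72 and 3.44 on the untreated KO arrays and 5.01, 5.46, 5.15 and 5.47 on the untreated WT arrays. All KO values lay below all WT values, a difference of -2.19 ± 0.18 (SE, adjusted p = 1.55e-06). Herc6, the mouse ISG15 ligase, had levels of -0.27, -0.004, -0.26 and -0.21 in untreated KO cells and 0.26, 1.00, 0.72 and 0.96 in untreated WT cells (difference -0.92, adjusted p = 0.000469). Ube2l6, the ISG15-conjugating enzyme, was also lower (-0.76), while the activating enzyme Uba7 (0.17) and the ligase Trim25 (-0.04) did not pass the test. Usp18, which removes ISG15 from proteins and dampens signalling at IFNAR2, had levels of 0.86, 1.10, 0.55 and 1.35 in KO cells and 2.54, 3.25, 2.89 and 3.53 in WT cells. Its groups were again separate, with a difference of -2.08 ± 0.21 (adjusted p = 1.09e-05). Among the other signalling members, Ifi35 was lower (-0.78, adjusted p = 0.0032), and Stat2 (-0.35) and Nmi (-0.49) did not pass.

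The 2',5'-oligoadenylate synthetase family had 5 of 6 members lower. Its enzymes make the activator of RNase L, an activity that its member Oasl1 lacks. Oas3, the longest synthetase of the family, had levels of -1.58, -0.99, -1.69 and -1.25 in untreated KO cells and 0.50, 0.07, -0.22 and 0.57 in untreated WT cells. The difference was -1.61 ± 0.20 (adjusted p = 8.21e-05). Oasl1 (-1.24), Oas1a (-0.84), Oasl2 (-0.59) and Oas2 (-0.39) were lower as well, and Oas1g (-0.75) did not pass. The 3 IFIT genes measured, whose proteins bind viral RNA ends or the translation machinery, were all lower. Ifit2 had levels of 1.19, 1.65, 0.96 and 1.51 in KO cells and 2.53, 2.87, 2.38 and 3.34 in WT cells, a difference of -1.45 ± 0.20 (adjusted p = 0.000229). Ifit3 differed by -1.37 and Ifit1 by -1.22.

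Of the 10 restriction factors and related genes measured, 5 were lower in untreated KO cells. Rsad2, which encodes viperin, an enzyme that makes a chain-terminating nucleotide, had levels of 2.46, 2.75, 2.44 and 2.87 in KO cells and 3.83, 4.54, 4.03 and 5.22 in WT cells. The groups were separate, with a difference of -1.77 ± 0.27 (adjusted p = 0.000405). Cmpk2, the neighbouring gene, a nucleotide kinase, had levels of 0.74, 1.27, 0.98 and 1.11 in KO cells and 2.17, 2.91, 2.43 and 2.91 in WT cells, a difference of -1.58 ± 0.18 (adjusted p = 3.06e-05). Bst2, or tetherin, which holds budding virions at the cell surface, had levels of 4.66, 4.82, 4.51 and 4.79 in KO cells and 5.59, 5.82, 5.67 and 6.17 in WT cells, a difference of -1.12 (adjusted p = 7.94e-05). Ifi44 (-1.05) and Ifitm3, which blocks viral entry from endosomes (-0.96), were lower, while Isg20, Samd9l, Rtp4, Xaf1 and Znfx1 lay between -0.48 and -0.12 and did not pass by their brightest probes.

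Of the cytosolic sensors, 2 of 6 were lower: Dhx58, or LGP2 (-0.68), and Ddx58, or RIG-I (-0.57). Ifih1, which encodes the long-RNA sensor MDA5, had levels of 4.05, 4.12, 4.00 and 3.88 in untreated KO cells and 3.53, 4.16, 3.96 and 4.30 in untreated WT cells. These groups overlapped (difference 0.02 ± 0.16). Zbp1, a sensor of Z-form nucleic acid, differed by -0.85 by its brightest probe without passing (adjusted p = 0.0512), as did the kinase PKR, Eif2ak2 (-0.22), and the RNA editor Adar (-0.29). Of the PARP family and its partner Dtx3l, 1 of 4 was lower, Parp12 (-0.65). Sp100, a component of PML nuclear bodies, had levels of -2.84, -2.34, -3.21 and -2.76 in KO cells and -1.52, -1.96, -2.15 and -1.30 in WT cells (-1.05, adjusted p = 0.0044), while Pml itself did not pass (0.04). Tor3a, an ATPase of the endoplasmic reticulum, was lower (-0.82), and the secreted Lgals3bp was not past the threshold (-0.37).

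Trim21 went the other way. This cytosolic antibody receptor and ubiquitin ligase had levels of 3.43, 3.34, 3.05 and 3.24 in untreated KO cells and 1.99, 2.69, 2.62 and 2.45 in untreated WT cells, a difference of 0.83 ± 0.15 (adjusted p = 0.0014). With LPS it had 6.43, 6.55 and 6.38 in KO cells and 5.79, 5.54, 5.59 and 5.44 in WT cells (0.86 ± 0.16, adjusted p = 0.00116). It was higher on every KO array in both conditions, and the only 1 of the 47 to pass in this direction. Its rise with LPS was nearly equal in KO (3.19) and WT cells (3.15). Trim30a, a related gene, was read at -2.81 on untreated KO replicate 3, against 3.97, 4.35 and 3.90 on the other untreated KO arrays and 4.02, 4.31, 4.21 and 4.76 on the untreated WT arrays. Its KO minus WT difference at rest was -1.97 with a standard error of 1.16 and did not pass (adjusted p = 0.274).

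The ligand gene was lower in KO cells in both conditions. Ifnb1 was well above background on 0 of 4 untreated KO arrays, whose values sit at the floor of -4.52, and on 4 of 4 untreated WT arrays, with levels of -3.85, -3.69, -4.38 and -3.74. KO cells thus lay at least 3.0-fold below WT cells at rest. This bound uses each array's own limit, which lies below the common floor of the fit. With LPS, Ifnb1 had levels of -0.13, -0.11 and -0.10 on the KO arrays and 1.61, 1.14, 1.12 and 1.24 on the WT arrays. Every KO value lay below every WT value, and the difference was -1.39 ± 0.16 (2.62-fold lower, adjusted p = 2.36e-05). LPS raised Ifnb1 at least 41.9-fold in KO cells and 36.6-fold in WT cells. Whether the response differed cannot be settled from these values, because the untreated KO level is only a bound. The difference of the responses was -0.79 (adjusted p = 0.0337) with the common floor and 0.80 (adjusted p = 0.0407) with the lowest limit of the arrays as the floor.

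Neither receptor subunit passed the test at rest by its brightest probe. Ifnar2 had levels of 5.57, 5.48, 5.46 and 5.48 in untreated KO cells and 5.42, 5.56, 5.54 and 5.64 in untreated WT cells, which overlapped. With LPS its levels were 5.87, 5.76 and 5.80 in KO cells and 6.33, 6.40, 6.13 and 6.15 in WT cells, a separation of -0.44 ± 0.10 (adjusted p = 0.00349). Its rise with LPS was 0.31 in KO cells and 0.71 in WT cells, and the difference of these responses did not pass (adjusted p = 0.0712). Ifnar1 had 5.44, 5.18 and 5.07 in LPS-treated KO cells against 5.42, 4.99, 5.43 and 5.04 in LPS-treated WT cells. Its untreated levels were 4.86, 4.63, 5.03 and 4.46 in KO cells and 4.19, 4.16, 4.28 and 4.68 in WT cells, and neither comparison passed by this probe. Of the other Ifnar1 probes, fitted among all probes, one was lower in KO cells at rest (-0.54, adjusted p = 0.0171) and with LPS (-0.82, adjusted p = 0.00116), and the dimmest with LPS alone. Stat2, the interferon-specific STAT, had 6.72, 6.68 and 6.43 in LPS-treated KO cells and 6.55, 6.35, 6.34 and 6.62 in LPS-treated WT cells. At rest it had 4.28, 4.42, 4.45 and 4.16 in KO cells and 4.32, 4.75, 4.61 and 5.01 in WT cells, with overlap in both conditions.

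LPS raised all 47 members in KO cells and all 47 in WT cells, against 32.5% of genes that rose in KO cells and 34.9% in WT cells. The median rise was 3.19 in KO and 2.83 in WT cells on the log2 scale. The largest rises in KO cells were those of Cmpk2 (6.75 in KO, 5.53 in WT), Oasl1 (6.40 and 5.37), Rsad2 (6.16 and 4.47), Usp18 (5.93 and 4.34), Herc6 (5.87 and 5.23) and Ifit2 (5.74 and 4.96). Cmpk2 thus rose 108-fold in KO cells and 46.1-fold in WT cells. The smallest rises in KO cells were those of Ifnar2 (0.31 and 0.71), Ifnar1 (0.49 and 0.89), Lgals3bp (0.73 and 0.54) and Ifitm3 (1.38 and 0.84).

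The response was larger in KO cells for 8 members: Isg15, Rsad2, Usp18, Ifit1, Cmpk2, Ifi44, Oasl1 and Oasl2. Among all genes tested, 2.92% had a higher and 7.17% a lower response in KO cells. The median difference over the 47 was 0.20, against -0.06 over all genes, and 36 of the 47 were positive. Isg15 rose by 5.39 in KO cells and 3.45 in WT cells, a difference of 1.94 ± 0.26 (adjusted p = 0.000339). Rsad2 differed by 1.69 ± 0.39 (adjusted p = 0.0148), Usp18 by 1.59 ± 0.30 (0.00447) and Cmpk2 by 1.23 ± 0.26 (0.00853). Ifit1 (1.25, adjusted p = 0.0316), Ifi44 (1.08, 0.0329), Oasl1 (1.03, 0.0248) and Oasl2 (0.86, 0.0287) followed, and Ifit3 just missed the threshold (1.14, 0.0506). The count of 8 was 4 without LPS-treated KO replicate 3 or without untreated WT replicate 2, 5 without untreated KO replicate 1, LPS-treated WT replicate 2 or 3 or untreated WT replicate 3, and 14 without untreated WT replicate 1. Isg15, Rsad2, Usp18 and Cmpk2 passed without each of the 15 arrays in turn.

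In these 8 genes the genotypes differed at rest, and with LPS none of them passed by its brightest probe. A dimmer probe was lower in LPS-treated KO cells for Isg15 (-0.59, adjusted p = 0.0202 over all probes) and Cmpk2 (-1.26, adjusted p = 0.00255). Isg15 reached 8.36, 8.62 and 8.44 on the LPS-treated KO arrays and 8.81, 8.74, 8.38 and 8.97 on the LPS-treated WT arrays (difference -0.25 ± 0.19). Rsad2 reached 8.70, 8.99 and 8.69 in KO cells and 8.88, 8.82, 8.41 and 9.36 in WT cells (-0.08 ± 0.29). Usp18 reached 6.94, 6.89 and 6.85 in KO cells and 7.54, 7.35, 7.14 and 7.52 in WT cells. The Usp18 groups did not overlap, with a difference of -0.50 ± 0.22 that did not pass (adjusted p = 0.109). Cmpk2, at 7.74, 7.82 and 7.76 in KO cells and 8.25, 8.04, 7.86 and 8.38 in WT cells, was also separate without passing (-0.36 ± 0.19, adjusted p = 0.178).

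Ifit1 reached 7.75, 8.34 and 7.82 in LPS-treated KO cells and 7.94, 7.80, 7.64 and 8.40 in LPS-treated WT cells, from untreated levels of 3.18, 3.18, 2.997 and 3.33 in KO cells and 3.74, 4.85, 4.35 and 4.65 in WT cells. Ifi44, whose product has antiviral activity, reached 5.43, 5.63 and 5.42 in KO cells and 5.87, 5.27, 5.39 and 5.32 in WT cells. Its untreated levels were 0.63, 1.28, 1.00 and 0.72 in KO cells and 1.43, 2.12, 1.97 and 2.33 in WT cells. For both genes the untreated groups were separate and the LPS groups overlapped. Oasl1, which in mice restrains translation of Irf7, reached 7.75, 7.68 and 7.74 in KO cells and 8.01, 7.98, 7.58 and 8.17 in WT cells, with untreated levels of 1.35, 1.41, 1.01 and 1.52 in KO cells and 2.23, 2.70, 2.30 and 3.02 in WT cells. Oasl2 reached 7.76, 8.05 and 7.85 in KO cells and 7.73, 7.51, 7.45 and 7.81 in WT cells. Its untreated levels, 4.63, 4.90, 4.72 and 4.75 in KO cells and 4.87, 5.55, 5.36 and 5.61 in WT cells, overlapped through untreated WT replicate 1 alone.

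**Figure D3:**
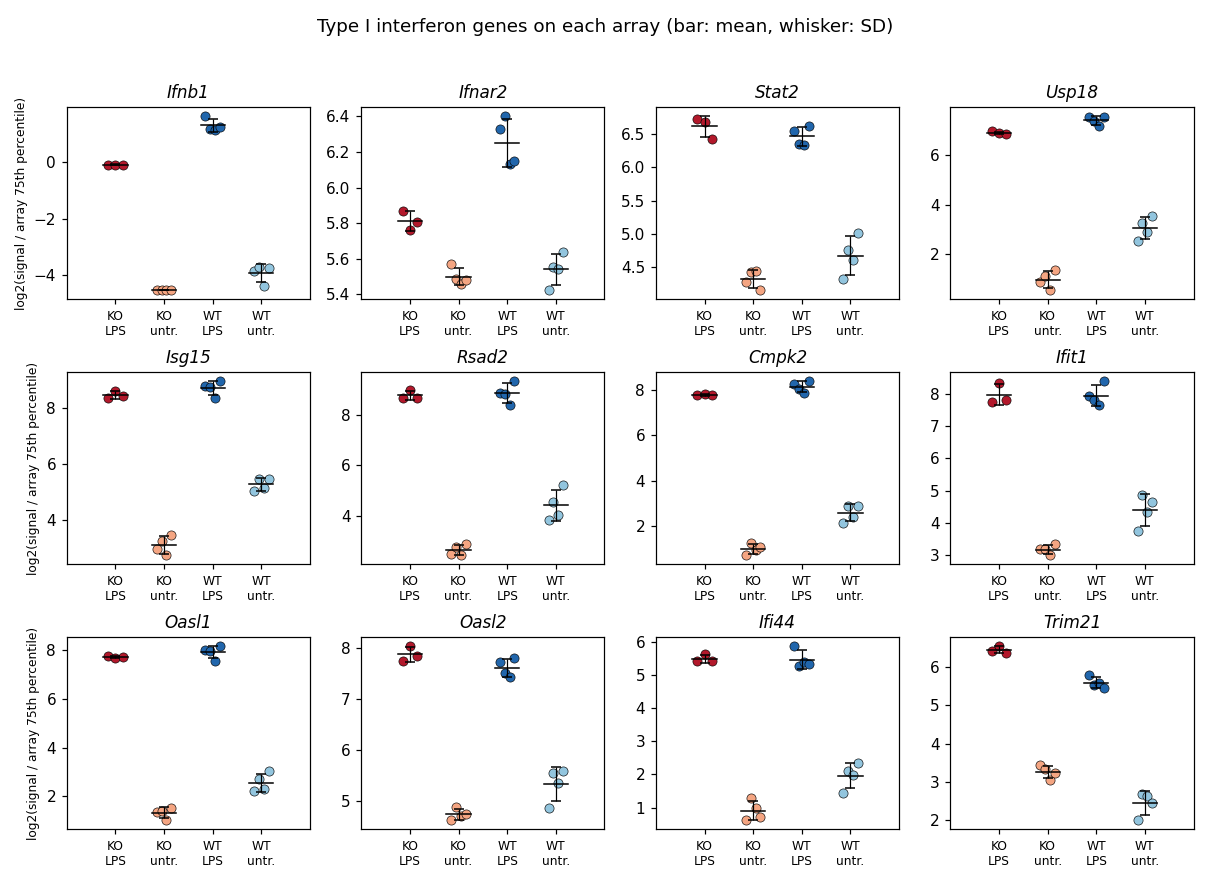
Level of 12 members on each of the 15 arrays (log2 of signal over the array's 75th percentile), in LPS-treated KO, untreated KO, LPS-treated WT and untreated WT cells; bars are means and whiskers SDs. In Isg15, Rsad2 and Oasl1 the untreated KO points lie below all untreated WT points while the LPS points overlap. Cmpk2 has its KO points below all WT points in both conditions, with a smaller gap with LPS. Ifnb1 is lower in KO cells in both conditions, and Trim21 is higher.

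With LPS, 10 members were lower in KO cells and 1 was higher, against 17.1% of genes lower and 13.6% higher. The share of members called lower is close to that background. KO arrays lay below WT arrays without overlap in 20 of the 47 members, a larger share than the 21.3% of all genes. Besides Ifnb1 and Ifnar2, the lower members were Oas3 (-1.29), Sp100 (-1.26), Ifi35 (-1.11), Bst2 (-1.09), Dhx58 (-0.67), Ifit2 (-0.67), Parp12 (-0.47) and Eif2ak2 (-0.44). Oas3 had 1.43, 1.32 and 1.75 in LPS-treated KO cells and 2.62, 3.06, 2.63 and 2.86 in LPS-treated WT cells (adjusted p = 0.000568). Bst2 had 6.32, 6.18 and 6.32 in KO cells and 7.32, 7.59, 7.11 and 7.45 in WT cells (adjusted p = 0.000114). Sp100 had -0.30, -0.56 and 0.00 in KO cells and 0.81, 1.24, 0.74 and 1.11 in WT cells (adjusted p = 0.00138). Ifi35, a partner of Nmi, had 5.03, 4.81 and 5.22 in KO cells and 6.06, 6.46, 5.91 and 6.09 in WT cells (adjusted p = 0.000262). In all 4 the groups were clearly separate. The summed signal of 6 matched neutrophil markers, as a multiple of the 75th percentile, was 18.2 to 20.7 in LPS-treated KO cells and 48.3 to 64.9 in LPS-treated WT cells, and 5.79 to 6.63 in untreated KO cells and 6.88 to 11.9 in untreated WT cells, with Mpo above background on no array. Most of this sum is S100a8, at a mean level of 3.82 in LPS-treated KO cells and 5.58 in LPS-treated WT cells, which also rose with LPS in both genotypes. Of the 4 neutrophil markers with a usable probe, 3 were lower in untreated KO cells and 3 with LPS, against 5.83% and 17.1% of all genes. The median over the 4 was -0.75 at rest and -1.20 with LPS. Elane, of the same list, differed by -0.02 with LPS and -0.05 at rest, without passing. The part of these markers in the differences was not tested. In bulk RNA, fewer cells of a type and less RNA per cell cannot be told apart.

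With LPS, 17 of the 47 members, and 430 of the 14198 genes, had a median signal of at least 100000. A member was called bright and near constant when it passed this limit over the 7 LPS arrays and its highest LPS signal, over its lowest, stayed below the 2.21-fold range of the same arrays' 75th percentiles. This held for 13 members: Ifih1, Ifit1, Ifit3, Ifitm3, Isg15, Lgals3bp, Oas1a, Oasl1, Oasl2, Parp14, Rsad2, Rtp4 and Samd9l. Ifit1 ranged only from 157253 to 211873 over the 7 LPS arrays, 1.35-fold, and Rsad2 from 246835 to 360970, 1.46-fold. Cmpk2 (2.25-fold), Isg20 (2.24-fold), Ifit2 and Znfx1 were as bright but varied more. Just under the brightness limit lay Trim30a, at a median of 99612, and just over it Isg20, at 105790. The other 30 members were dimmer, down to Oas1g at 982. No spot was marked as saturated on any array.

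The near-constant limit runs over KO and WT arrays together and so itself bounds a difference with LPS in the 13, for which no count of calls is read. The calls were counted by median signal alone. The LPS response was higher in KO cells for 6 of the 17 bright members and for 2 of the 30 dimmer ones (Usp18 and Ifi44). Among all genes with an LPS signal of at least 100000, 4.42% had a higher response in KO cells. Dimmer genes were split into ranges of LPS signal, in which 2.22% to 3.45% had a higher response. With LPS, 1 of the 17 was lower in KO cells (Ifit2), against 5.58% of all genes as bright. Of the 30 dimmer members 9 were lower, against 11.5% to 21.8% of all genes in the dimmer ranges. At rest, 10 of the 17 were lower, against 15.6% of all genes as bright. Of the 30, 14 were lower at rest, against 4.71% to 9.36% of all genes in the dimmer ranges. The median KO minus WT level at rest was -0.84 in the 17 and -0.58 in the 30. Rtp4, a receptor chaperone, had 8.31, 8.58 and 8.26 in KO cells and 8.39, 8.29, 7.89 and 8.46 in WT cells, and Parp14 8.10, 8.55 and 8.07 in KO cells and 8.06, 7.89, 7.84 and 8.28 in WT cells. The groups of both overlapped with LPS. They also overlapped at rest, where Rtp4 lay between 6.10 and 6.43 in KO cells and between 6.19 and 7.08 in WT cells, and Parp14 between 5.48 and 5.88 in KO cells and between 5.66 and 6.29 in WT cells.

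Ifih1 had 8.02, 8.24 and 7.95 in LPS-treated KO cells and 8.08, 7.83, 7.62 and 8.06 in LPS-treated WT cells. Ifit3 had 8.12, 8.39 and 8.24 in KO cells and 8.56, 8.52, 8.01 and 8.86 in WT cells, with untreated levels of 3.67, 4.15, 3.54 and 4.26 in KO cells and 4.89, 5.49, 4.97 and 5.76 in WT cells. By these probes both genes overlapped between the genotypes with LPS, and Ifit3 was separate at rest. A dimmer Ifih1 probe was lower in LPS-treated KO cells (-0.52, adjusted p = 0.0209 over all probes). Oas1a had 7.72, 7.73 and 7.65 with LPS in KO cells and 8.09, 8.05, 7.67 and 8.10 in WT cells, and at rest 5.18, 5.14, 5.16 and 5.11 in KO cells and 5.71, 6.08, 5.88 and 6.28 in WT cells. Ifitm3 had 7.88, 8.24 and 8.14 with LPS in KO cells and 8.43, 8.61, 8.18 and 8.81 in WT cells, against 6.68, 6.75, 6.38 and 7.02 at rest in KO cells and 7.39, 7.90, 7.69 and 7.68 in WT cells. By these probes Oas1a and Ifitm3 were separate at rest and overlapped with LPS, where the near-constant limit itself bounds a difference. Oas1a overlapped through LPS-treated WT replicate 3 alone. A dimmer Oas1a probe was lower in LPS-treated KO cells (-1.06, adjusted p = 0.000331 over all probes). Samd9l had 7.42, 7.56 and 7.44 in LPS-treated KO cells and 7.71, 7.73, 7.45 and 7.78 in LPS-treated WT cells. Lgals3bp had 7.87, 8.14 and 7.88 in KO cells and 8.23, 8.15, 7.84 and 8.32 in WT cells. By these probes both genes overlapped in both conditions. A dimmer Lgals3bp probe was lower in LPS-treated KO cells (-0.72, adjusted p = 0.00836 over all probes), and a dimmer Samd9l probe did not pass (-0.08). At rest Samd9l lay between 4.56 and 4.86 in KO cells and between 4.50 and 5.23 in WT cells, and Lgals3bp between 7.04 and 7.43 in KO cells and between 7.15 and 7.82 in WT cells.

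**Figure D4:**
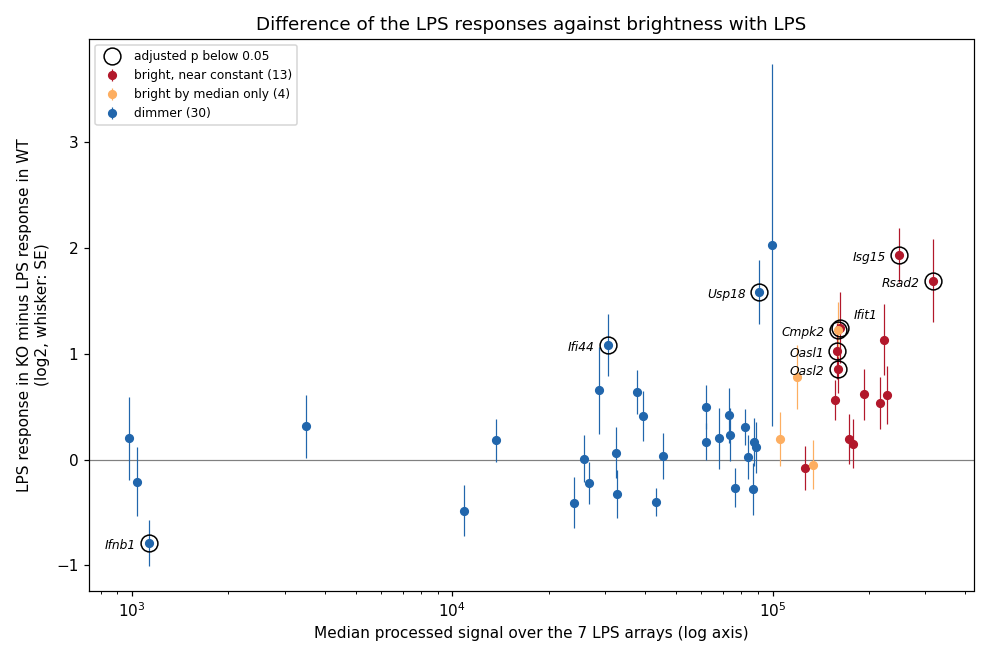
Difference of the LPS responses (KO minus WT, log2, whiskers SE) against the median signal over the 7 LPS arrays (log axis) for the 47 members, coloured by brightness class; rings mark an adjusted p below 0.05. Of the 8 ringed points above 0, 6 have a signal of at least 100000; Ifnb1 is the ringed point below 0, and its sign depends on the floor.

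For 17 members the array carries more than 1 usable probe, so the same gene could be read at different brightness. In 16 of them the probes are designed against 1 RefSeq transcript, and in Zbp1 against different ones. Each probe was fitted on its own, a setting chosen after the data had been seen. With LPS, the brightest probe was called lower in KO cells for 0 of the 17 genes and the dimmest probe for 13, against 15.2% of all usable probes. The 13 include Oas1g, whose dimmest probe had a median signal of 42.6. That probe was above background on 1 of 3 LPS-treated KO arrays, so its difference of -0.58 depends on the floor. The median KO minus WT level with LPS was -0.28 by the brightest and -0.59 by the dimmest probe. Cmpk2 differed by -0.36 (adjusted p = 0.202) by a probe of median signal 160445 and by -1.26 (0.00255) by one of 51588. Isg20 differed by -0.28 (0.313) and by -0.98 (0.00259), and Oas1a by -0.28 (0.171) and by -1.06 (0.000331). Ifnar1 differed by 0.01 with its bright and by -0.94 with its dim probe (0.00166).

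The same direction held across the array. Of the 3485 genes with more than 1 usable probe, 14.5% were lower in LPS-treated KO cells by the brightest and 25.1% by the dimmest probe. Of the 384 whose brightest probe had an LPS signal of at least 50000, 4.17% were lower by the brightest and 27.6% by the dimmest. At rest 6 of the 17 members were lower by the brightest and 7 by the dimmest probe, 5 of them by both, against 4.91% of all probes. The median absolute gap between the probes of a member was 0.35 at rest and 0.34 with LPS. At rest Isg20 was lower by its dim probe (-1.20, adjusted p = 0.000586) and not by its bright one, as was Zbp1 (-1.72, 8.89e-06). Tor3a, lower by its bright probe, missed the threshold by its dim one (-0.42, 0.0807). The larger LPS response of Isg15 in KO cells was 1.94 by its bright probe and 1.00 by its dim one, and both passed (adjusted p = 0.000627 and 0.0203 over all probes). That of Cmpk2 was 1.23 by the bright probe (0.0138) and 0.66 by the dim one, which did not pass (0.295). Zbp1 passed by its dim probe alone (1.13, 0.00968). Over the 17 genes, the response was called higher in KO cells for 2 by the bright and 2 by the dim probes, against 1.84% of all probes. By the dim probes it was called lower for 1, Oas1g (-0.58, adjusted p = 0.0352), whose untreated values by that probe all lay at the floor. Of all genes, 7.17% had a lower response by their brightest probe. The median difference over the 17 was 0.20 by the bright and -0.03 by the dim probes. The part of probe sequence or transcript form in these gaps was not tested.

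**Figure D5:**
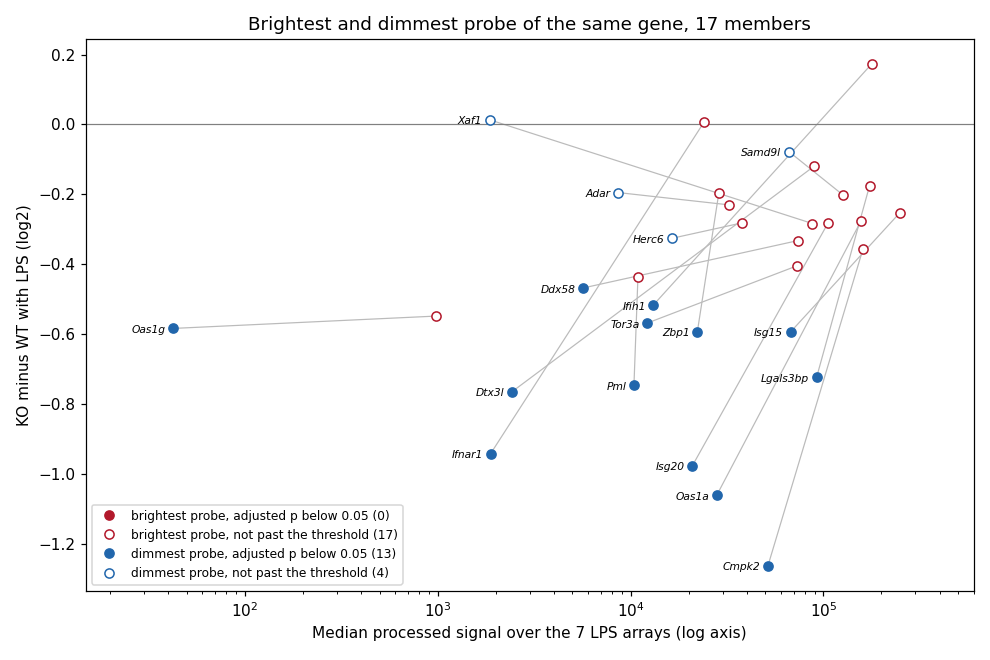
KO minus WT level with LPS (log2) against the median signal over the 7 LPS arrays (log axis) for the brightest (red) and dimmest (blue) probe of 17 members, with a line joining the probes of a gene; filled points have an adjusted p below 0.05. No red point and 13 blue points are filled, and 14 of the 17 lines run down towards the dimmer probe.

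Other genes of the pathway were read from lists that do not overlap the 50. Of all genes, 5.83% were lower and 11.9% higher in untreated KO cells, and 17.1% were lower and 13.6% higher with LPS. The LPS response was higher in KO cells for 2.92% of all genes and lower for 7.17%. Of 10 genes between the LPS receptor and Ifnb1, 2 were lower in untreated KO cells, Irf7 (-1.68, adjusted p = 0.000102) and Cd14 (-0.45). With LPS, 2 of these 10 were lower in KO cells and 2 were higher. Irf7, the amplifier of the interferon loop, stayed lower with LPS (-1.72, adjusted p = 9.97e-05), and its rise was nearly equal in KO (3.50) and WT cells (3.55). Tbk1, the kinase that activates IRF3, rose by 1.11 in KO and 1.90 in WT cells, and the difference of -0.80 passed (adjusted p = 0.0188). Irf3 itself differed by 0.01 at rest and -0.04 with LPS. Of 10 further parts of receptor signalling, 3 were lower at rest: the feedback inhibitors Socs1 (-1.15) and Socs3 (-0.94) and the receptor kinase Tyk2 (-1.08, and -1.08 with LPS). Irf9 (0.08 at rest) did not pass. With LPS, 2 of the 10 were lower in KO cells and 1 was higher, and 0 of the 10 passed in the difference of the responses. Among 28 further interferon-stimulated genes, 8 were lower and 2 higher in untreated KO cells, led by Trim34a (2.51), Ifit1bl1 (-2.35) and Ifit3b (-2.18). With LPS, 10 were lower and 2 higher. Their LPS response was higher in KO cells for 2 (Ifit3b and Phf11d) and lower for 2, counts too small to read against the shares of all genes. Of 6 other interferons and interferon gamma receptor genes tested, 1 was lower at rest (Ifna5, -0.74), and 1 had a lower response in KO cells (Ifngr2, -0.80). Ifna5 was above background on 1 of 4 untreated KO arrays, so its difference depends on the floor.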

How the data were processed

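Total RNA of 15 wells was amplified, labelled with Cy3 and hybridised to Agilent mouse 8x60k arrays, per the labels' protocols. The scans were quantified by Agilent Feature Extraction 10.7.3.1, per the file headers. The deposited processed signal is a background-subtracted intensity on a linear scale, per the file headers, and the probe design refers to build mm9. The deposited value table holds log2 values whose method and scale are not given in the sources used here, so it served only as an alternative. Its column medians are nearly equal.

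Non-uniform or outlier spots were set to missing, control spots left out, and each signal divided by its array's 75th percentile, raised to a floor of 0.0436 (-4.52 on the log2 scale) and turned to log2. Probes well above background on 3 or more arrays of any group were used (32522 of 55681). Probes were named by RefSeq accession (26582 matched 1 symbol of assembly GRCm38.p6), and the brightest kept probe stood for a gene. The model was limma 3.58.1 in R 4.3.3: 4 group means over 15 arrays, lmFit and eBayes, Benjamini-Hochberg adjusted p over 14198 genes, threshold 0.05. Differences are log2 with SE. Where a group was nowhere above background, folds are lower bounds. The small number of arrays limits the precision. On simulated data, limma found 33% of genes given a log2 difference of responses of 1 and 91% of those given 2, with 4 false calls among 14198 genes.

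Members and lists were chosen with earlier results of these data known. All 50 members were to be accounted for by role. Per-array values were set for the ligand, receptors, Stat2, the members called in the difference of responses, up to 8 further members called at rest and the bright ones. Of other lists, counts and up to 3 genes are named, and 1 gene is not reported here; Irf3, Irf9 and the per-array values of Ifi35, Trim21 and Trim30a were added after their values were seen. Alternatives covered normalisation, filter, floor, probe choice, groups in the fit, replicate block, array weights and left-out arrays. Same-numbered arrays did not pair: the correlation of their deviations ranged from -0.535 to 0.563.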

Additional observations from a re-analysis of the deposited data

Results flagged for a closer look

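On 5 of the 141 sets of 4 arrays examined (47 members in each of 3 groups), 1 array lay far from the others by Dixon's 95% limit. Chance flags about 1 in 20 such sets. Trim30a was read at -2.811 on untreated KO replicate 3, against 3.899 to 4.348 on the other untreated KO arrays. Parp9 was read at 4.265 on the same array, against 4.460 to 4.472. Oas1a was read at 7.672 on LPS-treated WT replicate 3, against 8.051 to 8.104. On untreated WT replicate 4, Trim25 was read at 5.749, against 4.811 to 4.972, and Znfx1 at 5.762, against 4.949 to 5.074.

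The test of the difference between the LPS responses of KO and WT cells passed for 9 members, of which Ifnb1 is not settled. KO minus WT, the differences were 1.935 for Isg15, 1.692 for Rsad2, 1.587 for Usp18, 1.247 for Ifit1, 1.226 for Cmpk2, 1.083 for Ifi44, 1.028 for Oasl1, 0.8553 for Oasl2 and -0.7873 for Ifnb1. The sign of the Ifnb1 difference depends on the floor, where its untreated KO values lie.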

How the results depend on the processing

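The count of members lower in untreated KO cells, 24, lay between 16 and 33 in all other settings and between 21 and 31 with 1 array left out. The deposited value table holds 33 of the 47 members; with it 29 rose with LPS in KO cells and 28 in WT cells, and with 1 array left out 46 to 47 rose in either genotype. The count with a higher LPS response in KO cells, 8, became 16 after normexp with quantile normalisation, 15 after quantile normalisation of the processed signal, 16 with array weights and 15 without the 3 arrays of widest spread, and lay between 4 and 14 with 1 array left out. The count called in LPS-treated KO against WT cells, 11, became 19 with the mean over a gene's probes, 24 with the dimmest probe and 20 with array weights, and lay between 8 and 15 with 1 array left out. Ifnb1's difference of responses turned to 0.80 with the floor at the lowest limit of the arrays, since its untreated KO values lie at the floor. The replicate block, which the arrays do not bear out as a pairing, gave 6 members with a higher response in KO cells. Ifi44, Ifit1, Ifnb1 and Oasl2 lost their call with it (adjusted p between 0.0592 and 0.0813). Isg15, Rsad2, Usp18 and Oasl1 kept their call in all settings that leave every array in, and Cmpk2 lost it with its dimmest probe (0.66, adjusted p = 0.239). The cause of these shifts was not tested, other than fewer members in the deposited table. Signal over background limits Ifnb1 and Oas1g. In untreated KO cells Sp100 (signal 86 to 294) was nearly as dim as the brightest Oas1g probe (62 to 200). Both were above background on every array.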
